A study of Mus musculus with 8 samples.

Results

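NF-κB is a family of transcription factors that dendritic cells use to turn on inflammatory, costimulatory and survival genes after they sense microbes or cytokines. Its subunits pair through a shared Rel homology region, are held in the cytoplasm by IκB proteins, and are released when those inhibitors are degraded. The factor then switches on several of its own inhibitors, a negative feedback that limits the response. The accessibility of 10 genes of this circuit was measured in conventional type 1 dendritic cells (cDC1) of mouse spleen, the subset that presents captured antigen to CD8 T cells. The genes were the subunits Nfkb1, Nfkb2, Rela, Relb and Rel, and the inhibitors Nfkbia, Nfkbie, Nfkbid and Tnfaip3. The last was Nfkbiz, grouped with the inhibitors, whose IκB protein also acts as a cofactor. All regions of the deposited table that overlap the gene span or lie within 25 kb of it on GRCm38 were taken, which gave 97 of 59906 regions.

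Open chromatin was assayed by ATAC-seq, which uses a transposase to tag accessible DNA with adapters. OPA1KO libraries came from CD11c-Cre;OPA1 flox mice (n = 4), and WT libraries from WT mice (n = 4). OPA1 is the GTPase that fuses the inner mitochondrial membrane, and CD11c-Cre acts in cells that express the integrin CD11c, so other dendritic cells and some macrophages can carry the deletion too. Ages, the Cre status of the WT mice and the animal behind each library are not given in the labels, so each p-value is set by library-to-library spread, part of which may be technical. Levels are TMM-scaled CPM (counts relative to library size), given as mean ± SD with n = 4 per group. Log2 fold changes are OPA1KO minus WT ± standard error. In a sorted population, fewer cells with an open region and lower accessibility per cell cannot be told apart.

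Library totals ranged from 5522153 to 7590578 counts in OPA1KO and from 4660826 to 6777651 counts in WT. The one region within 25 kb of Opa1 was at 39.2 ± 3.73 CPM in OPA1KO and 42.1 ± 3.85 CPM in WT (edgeR adjusted p = 0.925), and as the deleted part is not given it does not check the genotype. Of the 13 cDC1 markers, 12 had a region at a gene end, with a median of 27.6 CPM and summed levels of 333 to 370.2 CPM in OPA1KO and 352 to 376 CPM in WT; Itgae had none. Of other cell types, a gene-end region was present for 3 of 6 T cell markers (median 32.8 CPM; none at Cd3e, Cd3g and Trac), 3 of 5 pDC markers (27.3 CPM), 6 of 8 cDC2 markers (7.47 CPM), 3 of 6 neutrophil markers (14.7 CPM; none at Ly6g, Mpo and Elane), 1 of 4 NK cell markers (3.51 CPM) and 2 of 6 red cell markers (4.74 CPM; none at Gata1, Klf1, Hba-a1 and Alas2). All 12 monocyte and macrophage markers had one, at a median of 7.11 CPM.

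Most of the promoters hold the decamer that NF-κB itself recognises. RefSeq promoter windows on GRCm38.p6, from 250 bases before to 50 after a start, were matched for 7 of the 10 genes, and each of the 7 windows used lay wholly inside a region of the table. The κB decamer consensus was searched on both strands and was found in 6 of the 7, in Nfkb2, Rel, Nfkbia, Nfkbie, Nfkbid and Tnfaip3 and not in Rela. It was found in 8.46% of all 32851 windows and in 10.9% of the 12430 that overlap a region. These shares count every window of a gene, while the 7 are each gene's window in its strongest region. The genes were chosen for a known feedback circuit, so this is a description. The windows of 2 inhibitors and 2 subunits are shown 5′ to 3′ with the κB matches in capitals, because each lies in a region above 100 CPM:
Nfkbia, chr12:55492598-55492897, minus strand: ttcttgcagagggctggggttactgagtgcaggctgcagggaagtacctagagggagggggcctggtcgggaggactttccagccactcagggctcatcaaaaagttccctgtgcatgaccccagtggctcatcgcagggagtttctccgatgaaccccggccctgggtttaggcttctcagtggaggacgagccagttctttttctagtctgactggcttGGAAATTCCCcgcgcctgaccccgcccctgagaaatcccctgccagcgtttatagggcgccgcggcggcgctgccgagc
Tnfaip3, chr10:19015361-19015660, minus strand: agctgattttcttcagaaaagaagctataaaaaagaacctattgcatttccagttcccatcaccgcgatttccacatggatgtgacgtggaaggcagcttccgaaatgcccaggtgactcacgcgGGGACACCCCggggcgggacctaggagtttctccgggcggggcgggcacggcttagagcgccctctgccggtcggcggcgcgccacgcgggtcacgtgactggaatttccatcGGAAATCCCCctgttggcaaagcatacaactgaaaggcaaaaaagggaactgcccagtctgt
Nfkb2, chr19:46304487-46304786, plus strand: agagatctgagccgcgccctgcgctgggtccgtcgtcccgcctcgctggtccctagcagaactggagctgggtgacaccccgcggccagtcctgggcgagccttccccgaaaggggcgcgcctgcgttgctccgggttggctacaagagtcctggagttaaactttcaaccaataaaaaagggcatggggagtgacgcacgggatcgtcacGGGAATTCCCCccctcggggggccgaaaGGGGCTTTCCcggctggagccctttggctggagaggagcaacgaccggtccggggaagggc
Rel, chr11:23770920-23771219, minus strand: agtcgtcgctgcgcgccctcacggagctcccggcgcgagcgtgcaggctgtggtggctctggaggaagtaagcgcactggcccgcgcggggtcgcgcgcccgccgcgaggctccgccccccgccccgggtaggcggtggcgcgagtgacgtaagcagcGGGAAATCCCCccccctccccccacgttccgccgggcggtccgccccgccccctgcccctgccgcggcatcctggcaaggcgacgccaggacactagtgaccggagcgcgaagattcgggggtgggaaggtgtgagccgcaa

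Positions are counted from the start, with −1 the base before it. In Nfkbia the match spanned −29 to −20. In Tnfaip3 there were 2 stretches, at −125 to −116 and −12 to −3, and in Nfkb2 there were also 2, at −39 to −29 and −11 to −2. In Rel, overlapping matches spanned −92 to −82. The Nfkbie window held GGGGGATTCC at −106 to −97, and the Nfkbid window held GGGACTTCCC at −226 to −217 and GGAATTCCCC at −181 to −172. The GC box GGGCGG was in 6 of 7 windows, all but that of Nfkb2, against 65.9% of windows that overlap a region. The AP-1 motif TGANTCA was in those of Nfkbie and Tnfaip3 (4.94% of windows that overlap a region), the ETS motif GAGGAAGT in that of Rel (3.72%), and the IRF motif in none (2.96%).

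The 10 genes were open in both genotypes, and in 4 of the 10 windows 1 region held most of the signal. Of the 97 regions, 17 were at a gene end, meaning within 1 kb of either end of the gene model, 30 were elsewhere inside the genes and 50 lay outside them. Mean levels ran from 2.68 to 278 CPM with a median of 12.2 CPM, against 6.76 CPM over all tested regions. The 6 regions above 100 CPM were at Nfkbia, Relb, Rel, Nfkbiz, Tnfaip3 and Nfkb2. The strongest region held 75.3% of the summed level of the Rel window, 68.7% of those of Relb and Nfkbia and 62.2% of that of Tnfaip3, but 47.3% of that of Nfkbiz, 45.9% of that of Rela, 43.9% of that of Nfkb2, 28.4% of that of Nfkb1, 27.6% of that of Nfkbid and 21.2% of that of Nfkbie. The Nfkb1 window, around a gene of 107 kb, held 22 regions, more than 99.4% of gene windows. For 30 regions the nearest gene was a neighbour and not one of the 10, and among them were strong regions by Slc35b2 and Hsp90ab1 in the Nfkbie window and by Hcst in the Nfkbid window.

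**Figure D1:**
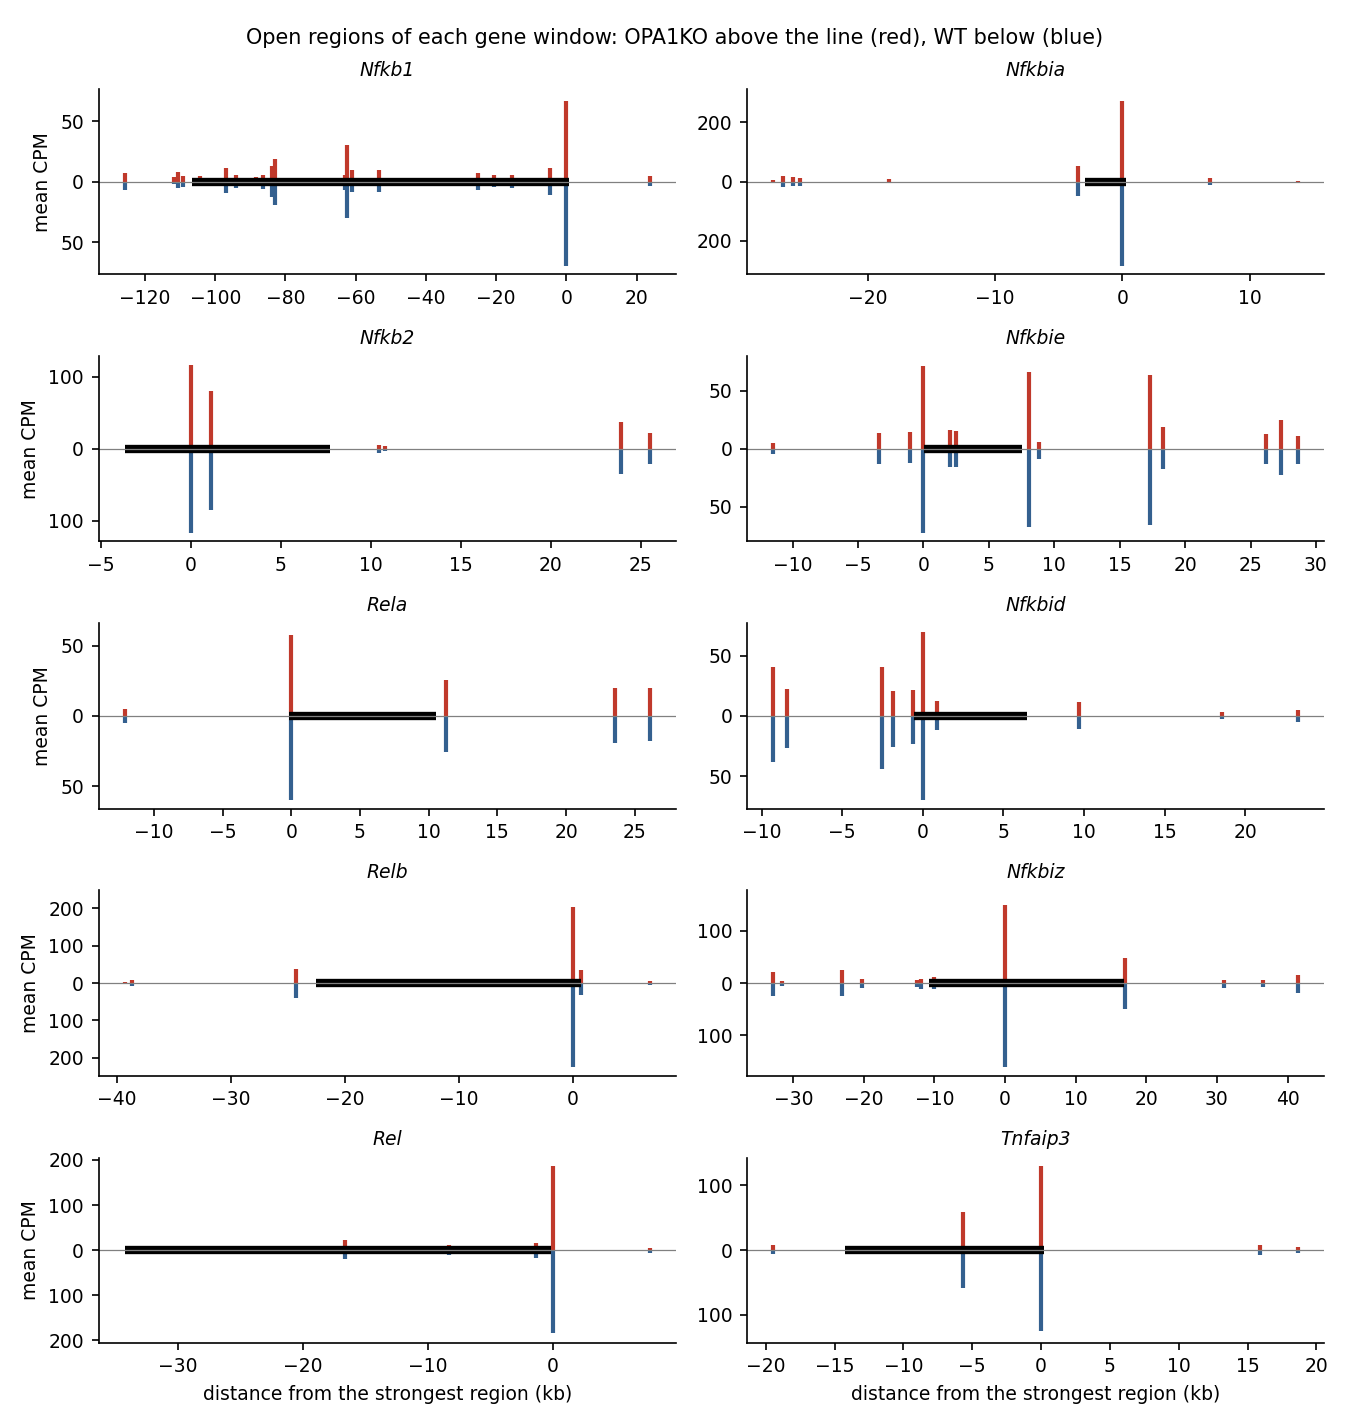
Mean level in CPM of every region of the 10 gene windows, against its distance in kb from the strongest region of the window, with OPA1KO drawn above the line and WT below it and the gene model as a black bar. The strongest region holds 75.3% of the level at Rel and 21.2% at Nfkbie, and 22 regions are spread over Nfkb1.

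Per kb of region, the main regions ranked Relb, Nfkbia, Rel, Nfkbid, Nfkbie, Nfkb2, Tnfaip3, Rela, Nfkb1 and Nfkbiz from high to low, where the main region is the strongest at a gene end, or for Nfkb2, which has none there, the strongest of the window. Relb averaged 265 CPM per kb, above 98.7% of the main regions at gene ends of 11994 genes. Nfkbiz averaged 47.3 CPM per kb, above 43.1% of them, but its strongest region, inside the gene, averaged 135 CPM per kb, next to Nfkb2 at 136 CPM per kb, so its last place rests on the use of gene ends. Relb was above Nfkbia in 8 of 8 libraries. Nfkbia was above Rel in 6 of 8, Nfkbid above Nfkbie in 4 of 8, Nfkbie above Nfkb2 in 7 of 8 and Rela above Nfkb1 in 6 of 8, so these neighbours did not separate beyond the spread of the libraries. Without division by width the order differed: Nfkbia (278 CPM) was above Relb (215 CPM), and Tnfaip3 (128 CPM) above Nfkbid (69.8 CPM).

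No region of the circuit differed between the genotypes by the test. By edgeR's quasi-likelihood test, 0 of the 97 regions had an adjusted p under 0.05 (smallest 0.599), against 0.0203% of the 59247 tested regions (0.00506% higher and 0.0152% lower in OPA1KO). Of the 97, 48 had a log2 fold change above 0 and 49 below it, with a median of −0.00, and over all tested regions the median was also −0.00. The unadjusted p was under 0.05 at 4 of them (4.12%), 2 higher and 2 lower in OPA1KO, against a background of 6.38%, of which 2.92% were higher and 3.46% lower. That count was 8 without WT replicate 1 and 2 without OPA1KO replicate 4 or WT replicate 2, 3 or 4. DESeq2 and limma-voom called 0 as well, with 2 and 3 regions at an unadjusted p under 0.05. The background of 6.38% is that of the edgeR fit to all 8 libraries. The share of all regions in the other fits is not given here, so their counts have no background.

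Summed over each gene's window, no gene passed either, and the intervals were narrow. Of the 10 windows, 0 had an adjusted p under 0.05, against 0.0236% of 16976 gene windows, and 0 had an unadjusted p under 0.05, against 5.2%. The log2 fold changes had a median of −0.02, as over all windows. Every 95% interval of the 10 genes lay between −0.34 and 0.22, that is between 0.793-fold and 1.17-fold. A gene window includes regions of neighbouring genes, and a p that misses the threshold does not show that the genotypes are equal.

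**Figure D2:**
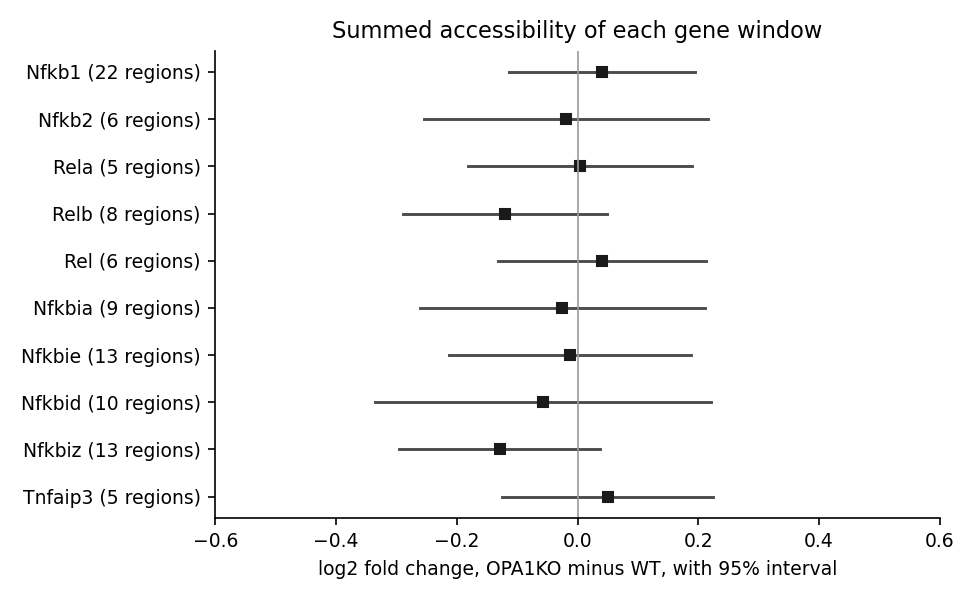
Log2 fold change (OPA1KO minus WT) of the summed level of each gene window, as squares with 95% intervals from edgeR, with the number of regions in brackets. All 10 intervals include 0 and lie between −0.34 and 0.22.

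Among the subunits, the genes of the canonical pathway had overlapping groups at their main regions. Rela, which encodes the main transactivating subunit (Entrez gene 19697, chromosome 19, 5637442 to 5648134), had a main region at 5637202 to 5638051 over a gene end. It was at 54.5, 56.6, 68.2 and 50.7 CPM in OPA1KO and at 45.2, 76.7, 54.2 and 64.2 CPM in WT. WT replicates 1 and 2 bracketed all other libraries, so the OPA1KO values lay inside the WT range (log2 fold change −0.06 ± 0.13, edgeR adjusted p = 0.968). The smallest p of the window was at 5663550 to 5663902, 15.4 kb away and overlapping Sipa1, at 20.1 ± 2.02 CPM in OPA1KO and 17.9 ± 0.867 CPM in WT (0.16 ± 0.15, edgeR adjusted p = 0.910).

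Nfkb1, whose precursor protein yields the DNA-binding partner of Rela (chromosome 3, 135584655 to 135691969), had its main region at 135690678 to 135691797. Its level was 73.8, 63.6, 62.3 and 67.7 CPM in OPA1KO and 59.0, 81.8, 69.2 and 67.8 CPM in WT, again with OPA1KO inside the WT range (−0.05 ± 0.10, edgeR adjusted p = 0.963). Within its window, 15 regions had a log2 fold change above 0 and 7 below. A weak region 3.75 kb outside the gene, at 135580538 to 135580910, had the smallest p, at 7.67 ± 2.23 CPM in OPA1KO and 5.34 ± 0.824 CPM in WT (0.51 ± 0.25, edgeR adjusted p = 0.778). The groups overlapped there, since OPA1KO replicate 2 was at 5.62 CPM and WT replicate 1 at 6.08 CPM.

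Rel, which encodes c-Rel, a subunit of lymphoid and myeloid cells, spans 23736847 to 23770969 on chromosome 11. Its gene-end region at 23770621 to 23771610 was at 168, 212, 199 and 168 CPM in OPA1KO and 159.9, 213, 187 and 178 CPM in WT, with interleaved groups (0.02 ± 0.09, edgeR adjusted p = 0.989). A weaker region inside the gene, at 23754251 to 23754719, separated the groups. It was at 21.1, 23.7, 22.8 and 26.4 CPM in OPA1KO and 20.5, 19.2, 20.04 and 16.1 CPM in WT. Every OPA1KO library was above every WT library there, by a margin of 21.1 against 20.5 CPM at the closest, and the region did not pass over all regions (0.31 ± 0.15, edgeR adjusted p = 0.781).

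The subunits of the non-canonical pathway, which responds to receptors such as CD40 and the lymphotoxin-β receptor, were the next pair. Relb, which dendritic cells are known to need for maturation, spans 19606217 to 19629438 on chromosome 7. Its gene-end region at 19628325 to 19629135 was at 199, 207, 223 and 184 CPM in OPA1KO and 210.3, 242, 217 and 234 CPM in WT. OPA1KO replicate 3 was above WT replicates 1 and 3, and the other 3 OPA1KO libraries were below all WT libraries (−0.15 ± 0.08, 95% interval −0.31 to 0.00, edgeR adjusted p = 0.787). The Relb window as a whole was at 299 ± 27.4 CPM in OPA1KO and 325 ± 20.7 CPM in WT (−0.12 ± 0.08, edgeR adjusted p = 0.998).

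Nfkb2, whose precursor is both an inhibitor of Relb and, once processed, its partner, spans 46300994 to 46312400 on chromosome 19. Both of its strong regions lay inside the model, at 46304213 to 46305073 and 46305402 to 46306192; the first holds the printed promoter. It was at 123, 124, 129 and 92.2 CPM in OPA1KO and 105, 142, 101 and 119.8 CPM in WT (−0.00 ± 0.11, edgeR adjusted p = 1.00). OPA1KO replicate 4 was lowest and WT replicate 2 highest of the 8 libraries. The other region was at 79.7 ± 13.1 CPM in OPA1KO and 85.5 ± 13.5 CPM in WT (−0.10 ± 0.11, edgeR adjusted p = 0.926).

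**Figure D3:**
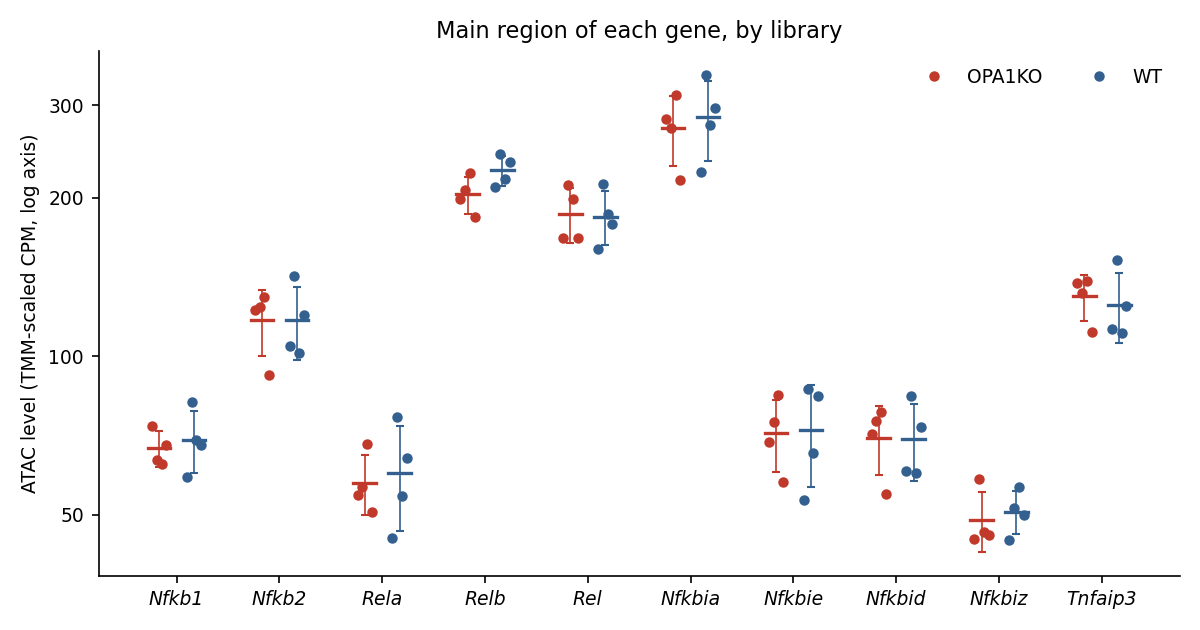
Level in TMM-scaled CPM (log axis) of the main region of each gene in every library, OPA1KO left of WT, with the mean as a line and the SD as a bar (n = 4 per group). The groups overlap for all 10 genes, from a mean of 49.8 CPM at Nfkbiz to 278 CPM at Nfkbia.

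The inhibitors that hold NF-κB in the cytoplasm showed the strongest region of the set and the same overlap at their main regions. Nfkbia encodes IκBα, the classical inhibitor that is degraded on stimulation and resynthesised by NF-κB, and spans 55489409 to 55492647 on chromosome 12. Its region at 55491672 to 55493001, which holds the printed promoter, was at 282, 272, 314 and 216 CPM in OPA1KO and 224, 343, 275 and 297 CPM in WT (−0.07 ± 0.13, edgeR adjusted p = 0.963). The lowest library was OPA1KO replicate 4 and the highest WT replicate 2. A distal region 15.2 kb away, at 55473768 to 55474236, was at 7.40, 8.52, 7.51 and 8.69 CPM in OPA1KO and 6.84, 6.39, 4.43 and 5.92 CPM in WT. Its groups did not overlap, and the test was not passed (0.43 ± 0.23, edgeR adjusted p = 0.808).

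Nfkbie, which encodes IκBε, spans 45555700 to 45563169 on chromosome 17. Its gene-end region at 45555398 to 45555867 was at 68.7, 75.0, 84.3 and 57.7 CPM in OPA1KO and 53.2, 86.6, 65.6 and 83.9 CPM in WT, with OPA1KO inside the WT range (−0.02 ± 0.14, edgeR adjusted p = 0.995). The smallest p of all 97 regions was at 45564310 to 45564570, 1.14 kb outside Nfkbie and overlapping Slc35b2, a nucleotide sugar transporter gene. This weak region was at 4.69, 7.07, 5.90 and 5.25 CPM in OPA1KO and 7.45, 11.4, 9.28 and 7.53 CPM in WT. All OPA1KO libraries were below all WT libraries, and it did not pass over all regions (−0.64 ± 0.23, edgeR adjusted p = 0.599).

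The nuclear IκB proteins act on DNA-bound NF-κB instead of retaining it. Nfkbid, which encodes IκBNS, spans 30421731 to 30428749 on chromosome 7. Its gene-end region at 30422060 to 30422512 was at 71.3, 75.4, 78.4 and 54.8 CPM in OPA1KO and 60.5, 84.1, 60.1 and 73.5 CPM in WT (0.01 ± 0.12, edgeR adjusted p = 0.998). The groups were interleaved. A region 1.17 kb outside the gene, nearest to the signalling adaptor gene Hcst, was at 20.4 ± 3.10 CPM in OPA1KO and 25.5 ± 4.91 CPM in WT (30420252 to 30420559, −0.32 ± 0.16, edgeR adjusted p = 0.790).

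Nfkbiz, which encodes IκBζ, a cofactor for secondary response genes such as Il6, spans 55811375 to 55838954 on chromosome 16. Its strongest region lay inside the gene, at 55821524 to 55822683, at 144, 162, 165 and 132 CPM in OPA1KO and 139, 175, 165 and 168 CPM in WT (−0.10 ± 0.09, edgeR adjusted p = 0.898). The region at the gene end, at 55838504 to 55839556, was at 48.9 ± 6.36 CPM in OPA1KO and 50.7 ± 4.81 CPM in WT (−0.05 ± 0.11, edgeR adjusted p = 0.968). The groups overlapped at both.

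Of the 13 regions of the Nfkbiz window, 2 had a log2 fold change above 0 and 11 below, and the window sum was 315 ± 18.9 CPM in OPA1KO and 345 ± 28.5 CPM in WT (−0.13 ± 0.08, 95% interval −0.30 to 0.04, edgeR adjusted p = 0.997). Distal regions on either side separated the groups. That at 55852913 to 55853241, 14.0 kb away and overlapping Nxpe3, was at 6.97, 6.16, 4.02 and 7.22 CPM in OPA1KO and 8.51, 9.66, 8.44 and 10.8 CPM in WT (−0.62 ± 0.23, edgeR adjusted p = 0.613). That at 55788696 to 55789821, 21.6 kb away, was at 20.8 ± 1.496 CPM in OPA1KO and 24.3 ± 2.20 CPM in WT (−0.22 ± 0.14, edgeR adjusted p = 0.850). Neither passed the test.

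Tnfaip3 encodes A20, a ubiquitin-editing enzyme that shuts off signalling upstream of IκB degradation, and spans 19000910 to 19015410 on chromosome 10. Its gene-end region at 19014583 to 19015778 was at 138, 132, 139 and 111 CPM in OPA1KO and 113, 152, 111 and 125 CPM in WT (0.05 ± 0.10, edgeR adjusted p = 0.959). A region inside the gene at 19009234 to 19009793 was at 58.7 ± 3.39 CPM in OPA1KO and 57.7 ± 9.71 CPM in WT. The OPA1KO values lay inside the WT range at both. A weak region 5.03 kb away, at 18995552 to 18995878, had the smallest p, at 7.78 ± 1.81 CPM in OPA1KO and 6.09 ± 1.41 CPM in WT (0.34 ± 0.24, edgeR adjusted p = 0.869).

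In all, the groups did not overlap in 5 of the 97 regions (5.15%), against 3.95% of tested regions (1.84% higher and 2.11% lower). They were those at Rel and Nfkbia, higher in OPA1KO, and those near Nfkbie and on both sides of Nfkbiz, lower in OPA1KO. The highest mean among the 5 was 24.3 CPM, so none was a main region. Set against regions of like level, 92 of the 97 fold changes lay in the middle 95% of all tested regions. Gene-end regions had a median log2 fold change of −0.03 (7 above 0, 10 below), as had all tested gene-end regions. The median was 0.03 (18 and 12) for regions inside the genes and −0.03 (23 and 27) for regions outside. It was 0.00982 for all regions inside a gene and 0.0149 for all between genes. These classes are unlike, since regions outside the 10 genes include some that overlap a neighbouring gene, and those between genes overlap none.

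**Figure D4:**
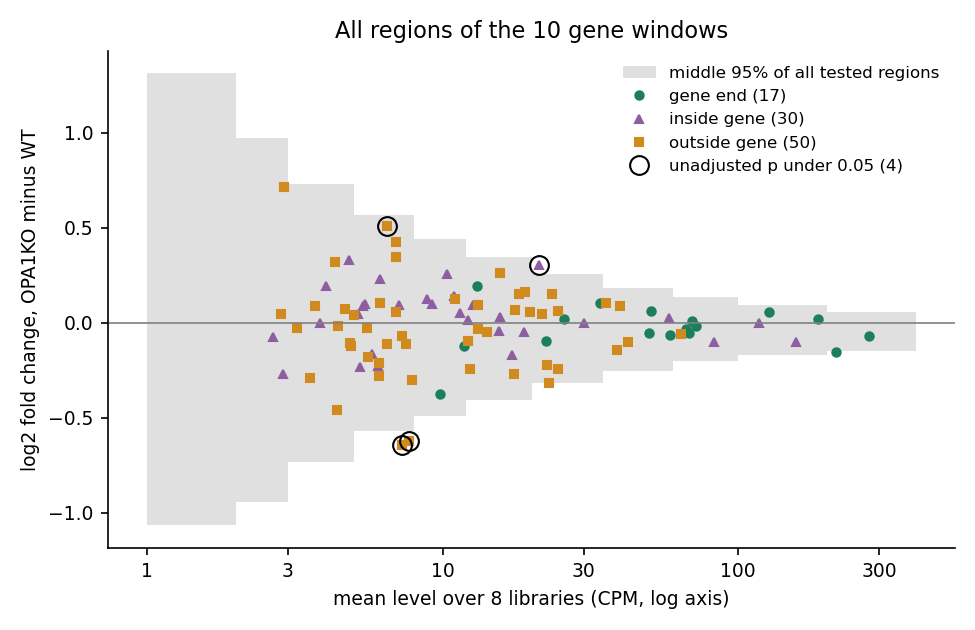
Log2 fold change (OPA1KO minus WT) against mean level in CPM (log axis) for the 97 regions, coloured by place, over the middle 95% of all tested regions in grey. Circles mark the 4 regions with an unadjusted p under 0.05; all 4 are below 25 CPM and none passed adjustment.

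The spread between libraries of 1 genotype was larger than the difference between the genotype means. WT replicate 2 was the highest library at 9 of the 10 main regions. OPA1KO replicate 4 was the lowest at 4 and WT replicate 1 at 5. Summed over the 97 regions, levels were 2679, 2777, 2917 and 2411 CPM in OPA1KO and 2442, 3202, 2624 and 2749 CPM in WT. The group means were 2696 ± 214 CPM in OPA1KO and 2754 ± 324 CPM in WT, a log2 ratio of −0.03, which was 0.02 without OPA1KO replicate 4 and 0.05 without WT replicate 2.

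That order was shared in part with the rest of the table. The first principal component of the 59150 tested regions outside the 10 windows held 22.2% of their variance. Its scores were 0.32, 0.08, 0.27 and −0.40 in OPA1KO and −0.45, 0.51, −0.43 and 0.09 in WT. WT replicate 2 had the highest score and the highest summed level, and the 3 libraries with scores below 0 had the 3 lowest sums. Between these the order differed: OPA1KO replicate 1 scored above OPA1KO replicate 2 but had a lower sum (2679 against 2777 CPM). The share of counts at gene ends did not follow the order: it was 51.2% to 52.4% in OPA1KO and 52.3% to 52.9% in WT, and the highest share was in WT replicate 1. What sets this order was not tested.

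**Figure D5:**
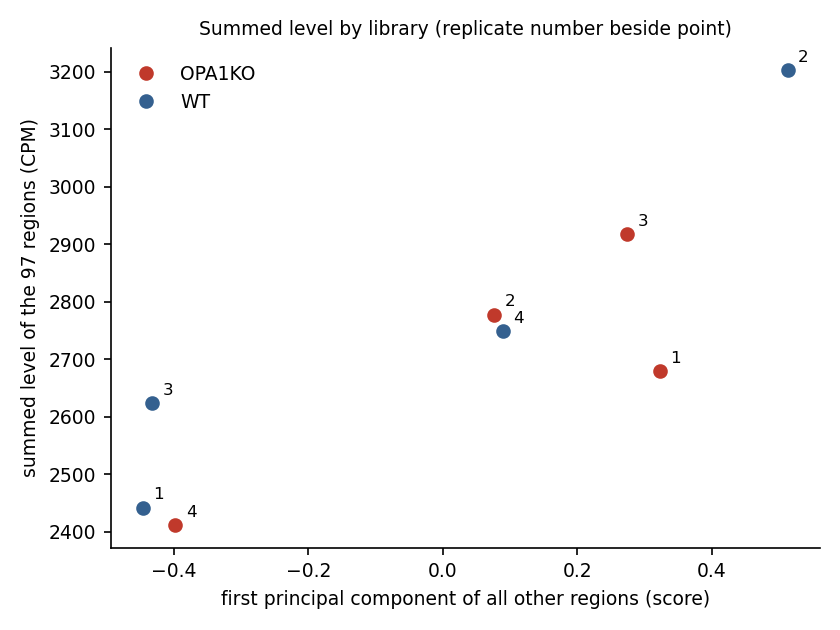
Summed level of the 97 regions in CPM against the score of each library on the first principal component of all other tested regions, with the replicate number beside each point. WT replicate 2 is at the upper right (3202 CPM), and OPA1KO replicate 4 (2411 CPM) and WT replicate 1 (2442 CPM) are at the lower left, so both genotypes span the axis.

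The gene windows most like the summed level over the 8 libraries were Gna13 (Pearson r of log2 levels 0.998), Vamp2 (0.994), Srgn (0.992), Serpinf2 (0.991) and Apba3 (0.991). The search covered the 8455 windows with a mean level at or above the median that share no region with the 10. As 1307 of these windows had an r above 0.9, the pattern is common to many genes, and all points share the library and its depth.

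Other genes of the pathway gave no called window. Of 30 upstream kinases, adaptors and ubiquitin ligases, 0 passed adjustment, 12 had a log2 fold change above 0 and 18 below (median −0.01). Of 22 other inhibitors the counts were 0 called, 8 above and 14 below (−0.01), and of 23 receptors that signal to NF-κB they were 0, 8 and 15 (−0.02). The median of all gene windows was −0.02. An unadjusted p under 0.05 was reached by 1, 0 and 1 windows of these lists, which is 3.33%, 0% and 4.35% against the background of 5.2%. The smallest p of the upstream list was at Card9, the adaptor of fungal lectin receptors (53.2 ± 3.17 CPM in OPA1KO, 45.7 ± 5.81 CPM in WT, 0.23 ± 0.10, edgeR adjusted p = 0.921). Among receptors it was at Tnfrsf11a, which encodes RANK (43.1 ± 5.55 CPM in OPA1KO, 51.6 ± 6.03 CPM in WT, −0.26 ± 0.11, edgeR adjusted p = 0.911). Groups overlapped at both. The next of these lists were Birc3 (−0.14 ± 0.07) and Bcl10 (−0.13 ± 0.07), and Tnfrsf1a (−0.12 ± 0.09) and Cd27 (0.09 ± 0.07), with values as log2 fold changes. The Bcl10 groups did not overlap, at 320.3 ± 10.3 CPM in OPA1KO and 349.9 ± 17.6 CPM in WT. The share of all gene windows with separated groups is not given here, so such a separation has no background. The inhibitor with the smallest p was the deubiquitinase gene Otud7b (−0.15 ± 0.08, edgeR adjusted p = 0.997), followed by Tnip3 (0.11 ± 0.08) and Rnf11 (0.08 ± 0.08).

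Of 33 target genes of NF-κB, one of which is Relb, 32 had a tested window and 0 were called, with 16 above 0 and 16 below (median −0.00). An unadjusted p under 0.05 was reached by 5 (15.6%), 2 higher and 3 lower in OPA1KO, against 1.27% and 3.93% of all windows. The 2 higher ones, Ccl3 and Ccl4, are neighbours whose windows hold the same 10 regions and so are 1 measurement. Cxcl1 and Cxcl2, both among the 16 above 0, likewise share the same 8 regions. Of the 3 lower ones, Vcam1, Cxcl10 and Cxcl9, the last pair are neighbours whose windows share some of their regions. Vcam1, an adhesion molecule gene, was at 7.68, 10.7, 8.98 and 10.2 CPM in OPA1KO and 13.7, 12.2, 20.3 and 14.2 CPM in WT. Its groups did not overlap, and it did not pass (−0.68 ± 0.19, edgeR adjusted p = 0.679). The Cxcl9 groups did not overlap either, at 81.0 ± 4.96 CPM in OPA1KO and 91.0 ± 4.55 CPM in WT (−0.17 ± 0.07, edgeR adjusted p = 0.911). Vcam1 is also a macrophage marker and is 1 of the 12 monocyte and macrophage windows, so that list includes its value. Of the 12, 10 were below 0 (median −0.12). In 4 (33.3%), all lower in OPA1KO, the unadjusted p was under 0.05, against 5.2% of all windows (3.93% lower). The summed level at their gene ends was 164 to 193 CPM in OPA1KO and 175 to 215 CPM in WT. The part of these markers in the Vcam1 value was not tested.

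The chemokine genes were the next targets by p. Cxcl10 was at 83.1 ± 5.37 CPM in OPA1KO and 94.2 ± 6.68 CPM in WT (−0.18 ± 0.08, edgeR adjusted p = 0.903). Ccl3 was at 165 ± 26.9 CPM in OPA1KO and 136 ± 18.2 CPM in WT (0.27 ± 0.12, edgeR adjusted p = 0.911). Over the pathway lists, 7 windows had an unadjusted p under 0.05, with the shared window of Ccl3 and Ccl4 counted for each gene. The count was 2 without OPA1KO replicate 1 or WT replicate 4, and 4 without OPA1KO replicate 2 or WT replicate 3. The share of all windows without those libraries is not given here.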

How the data were processed

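The deposited values are counts per region and library, whole numbers with no normalization, over 59906 regions shared by 8 ATAC-seq libraries of sorted splenic cDC1. The submitters' processing notes name bedtools, MACS2 (2.1.0.20150603), cutadapt (1.9), SAMtools and Picard (1.65), and the builds GRCm38 and mm10; the order of steps, any shift of read ends and the rule for the common regions are not given in the sources used here. Columns were matched by library name. Coordinates are printed as deposited.

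Regions were filtered with filterByExpr (59247 kept), scaled by TMM and tested with edgeR 4.0.16 (estimateDisp, glmQLFit and glmQLFTest, robust, R 4.3.3) over all 8 libraries, adjusted by Benjamini-Hochberg over all regions. The biological coefficient of variation was 0.164. Counts summed per gene window were tested alike over 16976 protein-coding genes from RefSeq models on GRCm38. Where RefSeq gives a gene several promoter windows, that in the strongest region was used; 5 motifs were searched. The procedure was checked on simulated data. Replicates were not duplicates: their counts differed by a chi-square per degree of freedom of 2.16 to 4.74. Intervals cover these libraries alone.

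Alternatives were other scalings, filters and tests (DESeq2 1.42.0, limma-voom 3.58.1), other margins around the genes, a replicate block and leaving out each library. Named regions per gene were the strongest at a gene end, the strongest of the window, that with the smallest p, and any called or with separated groups, and per pathway list up to 3 genes with the smallest p. The strong regions by Slc35b2, Hsp90ab1 and Hcst and inside Tnfaip3 were named after their values were seen. The members and lists were chosen with earlier results of these data known. One marker list is not reported here.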

Additional observations from a re-analysis of the deposited data

Results flagged for a closer look

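At a few values 1 library stood far from the other 3 of its group. This was so in 5 of the 90 groups of 4 that were checked, and chance gives about 1 in 20. The Nfkbiz gene-end region was at 58.4 CPM in OPA1KO replicate 2, against 45.0 to 46.4 CPM in the other OPA1KO libraries. In WT replicate 2 the Bcl10 window was at 376 CPM, against 339 to 342 CPM in the other WT libraries, and the Otud7b window at 106 CPM, against 87.3 to 90.6 CPM. The Cd27 window was at 134 CPM in OPA1KO replicate 1, against 149 CPM in the others, and at 150 CPM in WT replicate 3, against 131 to 134 CPM in the others.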

How the results depend on the processing

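In every alternative run, 0 of the 97 regions, 0 of the 10 gene windows and 0 pathway windows passed adjustment. The number of the 97 regions at an unadjusted p under 0.05 was 2 with the DESeq2 test, 2 with the replicate block, 1 of the 42 overlapping a gene span and 2 of the 67 nearest to one of the genes, and 2 to 8 leaving out a library. Pathway windows at that threshold numbered 2 to 7 leaving out a library. For other tests, the replicate block and the omitted libraries, the share of all regions or windows is not given here. The log2 ratio of the summed level ran from −0.08 to 0.05 and the Opa1 region from −0.15 to −0.04. The settings for the pathway count and the Opa1 region were chosen after seeing the data.

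Over single regions and windows, 655 of 706 alternative values kept the sign and 51 did not, 35 of these leaving out a library. They belong to 17 results. As log2 fold changes, the region Nfkb2 46304213 was 0.00109 with DESeq2 size factors, 0.0219 with total counts, 0.00123 with the DESeq2 test, 0.00141 with the replicate block and 0.0373 scaled to gene-end totals, a scaling chosen after seeing the data. The region Nfkbie 45555398 was 0.00659 with total counts, 0.00579 with limma-voom and 0.0213 scaled to gene-end totals. With total counts the windows of Nfkb2 and Nfkbie were 0.00339 and 0.00915. The Rela window was −0.0616 over the gene span alone, −0.0375 within 10 kb, −0.00705 within 50 kb and −0.0412 by nearest gene. The Nfkbie window was 0.0113 by nearest gene and the Tnfaip3 window −0.0106 within 50 kb. The cause was not tested.

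Leaving out a library, regions ranged from −0.12 to 0.0309 (Nfkb1 135690678), −0.0618 to 0.10 (Nfkb2 46304213), −0.19 to 0.00305 (Nfkb2 46305402), −0.16 to 0.0284 (Nfkbia 55491672), −0.0544 to 0.11 (Nfkbid 30422060), −0.14 to 0.0785 (Nfkbie 45555398), −0.15 to 0.00246 (Nfkbiz 55838504), −0.046 to 0.0886 (Rel 23770621) and −0.17 to 0.0752 (Rela 5637202). Windows ranged from −0.00138 to 0.0869 (Nfkb1), −0.0835 to 0.0951 (Nfkb2), −0.0646 to 0.085 (Rela), −0.0174 to 0.10 (Rel), −0.11 to 0.0759 (Nfkbia), −0.0659 to 0.087 (Nfkbie) and −0.13 to 0.0821 (Nfkbid).

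The replicate numbers are in the labels of both genotypes, which do not say whether a number pairs libraries. The correlations of the deviations of same-numbered libraries were −0.13, −0.01, −0.08 and −0.07. Those of differently numbered libraries ran from −0.25 to 0.22, so these values cannot show whether same-numbered libraries are paired. With 4 libraries per group and a biological coefficient of variation of 0.164, weak regions have wide intervals: 43 of the 97 were under 10 CPM.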
